A study of Homo sapiens with 6 samples.

Results

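Transcripts of the proteasome subunits and of the chaperones that assemble them were counted in TC28a2, a human chondrocyte cell line that has been immortalised. The cells had been transfected 48 h earlier with a ZEB1 overexpression vector (3 libraries) or with a control vector (3 libraries). ZEB1 is a zinc finger transcription factor known for its part in epithelial to mesenchymal transition, and the study asks about its part in cell senescence in osteoarthritis. Neither the promoter that drives ZEB1 nor the share of cells transfected is given in the sources used here. No label ties the replicates to separate cultures, and p-values therefore measure only the spread between libraries, which may be technical. The members are the protein-coding genes whose symbol starts with PSMA, PSMB, PSMC, PSMD, PSME, PSMF or PSMG, together with POMP and without PSMB8 and PSMB9. That rule found 49 of the 28395 genes in the table. By textbook role they are 8 alpha and 9 beta subunits of the core particle, 9 base and 8 lid subunits of the regulatory particle, 5 activators and inhibitors, 8 assembly chaperones and 2 genes, PSMC3IP and PSME3IP1, that share the name only.

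The proteasome is the large protease that degrades ubiquitin-tagged proteins in the cytosol and nucleus. Its core is a barrel with rings of alpha subunits outside and rings of beta subunits inside, and the protease sites lie on the beta subunits facing the chamber. The regulatory particle caps the barrel: its base holds the ATPases that unfold the substrate, and its lid holds the enzyme that removes the ubiquitin chain. In human cells the genes of the complex are known to be transcribed together, and NFE2L1 raises them when proteasome activity is low.

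The ZEB1 libraries were shallower, with totals of 1277632, 1621270 and 3316228 counts for replicates 1, 2 and 3, than the controls, with 5359200 to 5878640 counts. ZEB1 itself had 13805, 21844 and 23143 counts with the ZEB1 vector, against 203, 114 and 131 counts with the control vector. Its log2 fold change was 8.79 (SE 0.31), and the edgeR quasi-likelihood test gave an adjusted p of 2.37e-13. In CPM, here counts scaled to a common library size with TMM factors, ZEB1 stood at 12216, 13988 and 6865 with the ZEB1 vector, so that the deepest of these libraries, replicate 3, had the least ZEB1. Depth and ZEB1 level thus cannot be told apart in these libraries. Of the chondrocyte markers, SOX9 was well counted, at 68.0 ± 8.84 CPM with the ZEB1 vector and 67.1 ± 14.4 CPM with the control vector (SD, n = 3 each). ACAN and COL2A1, which encode the main proteins of cartilage matrix, had 0 counts in each ZEB1 library and at most 8 counts in any control. Enough counts for the test were found for 1 of 9 chondrocyte, 3 of 6 mesenchymal, 3 of 5 leukocyte, 3 of 5 endothelial and 0 of 4 epithelial markers, and none of those tested passed it. Groups did not overlap for 2 of 3 mesenchymal and 2 of 3 leukocyte markers tested, with ZEB1 below, and for 1 of 3 endothelial markers, with ZEB1 above. Over all genes tested 8.16% lay below and 6.96% above in this way. The mesenchymal genes COL1A1 and FN1 had log2 fold changes of -0.33 each, with all ZEB1 libraries below all controls, and VIM had 0.07. In a fit with trends against transcript length, GC and abundance removed, COL1A1 had -0.11, FN1 -0.35 and VIM 0.09. Of the leukocyte list, LAPTM5 (-0.56) and CORO1A (-0.997, SE 0.61) also had all ZEB1 libraries below. CORO1A had few counts, 8, 1 and 25 with the ZEB1 vector, against 55, 54 and 77 with the control vector. SRGN averaged 189 ± 45.1 CPM with the ZEB1 vector and 144 ± 9.35 CPM with the control vector (SD, n = 3 each). PTPRC had 2 counts in all 6 libraries together. Of the endothelial list, PECAM1 had few counts, 4, 12 and 22 with the ZEB1 vector, against 9, 6 and 11 with the control vector. In CPM these were 3.54, 7.68 and 6.53 against 1.44, 1.09 and 1.79, with all ZEB1 libraries above all controls. The log2 fold change of PECAM1 was 2.04 (SE 0.87), while EGFL7 had 0.12 and ENG -0.15. The part of these markers in the proteasome values was not tested.

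No proteasome transcript passed the edgeR threshold. Of the 47 members tested, 0 had an adjusted p of at most 0.05, against 1 of all 11329 genes tested (0.00883%), which was ZEB1. The lowest adjusted p among the members was 0.273, for PSMA3 and PSMA4. The fold changes were not evenly spread over the complex, however. Their median was 0.39 on the log2 scale for the core alpha subunits, 0.22 for the core beta subunits, 0.21 for the assembly chaperones, 0.09 for the base, 0.09 for the lid and 0.07 for the activators and inhibitor, beside -0.01 over all genes tested. All 15 tested core subunits had a log2 fold change above 0, against 11 of 17 subunits of the regulatory particle, while scaling by library size alone left 12 of 15 and 7 of 17 above 0 and removal of length, GC and abundance trends 12 of 15 and 9 of 17. Without ZEB1 replicate 1 the counts were 11 of 15 core and 11 of 17 regulatory subunits, with the beta subunits at 5 of 8. Without ZEB1 replicates 1 and 2 they were 8 of 15 and 9 of 17, so the contrast between the particles rests on those libraries. That difference between the particles was not tested. In these bulk libraries, a change in RNA per cell and a change in the share of cells that express a gene cannot be told apart.

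With the p left unadjusted, 8 members were higher and 0 were lower below 0.05, and over all genes tested 5.83% were higher and 3.57% lower (9.40% in either direction). These 8 were the alpha subunits PSMA1, PSMA2, PSMA3, PSMA4 and PSMA5, the beta subunit PSMB4, the lid subunit PSMD14 and the chaperone PSMG4. Among well-counted genes (mean count 100 or more), 9.00% were higher and 4.46% lower at that p. Over all members 37 of 47 (78.7%) had a log2 fold change above 0, against 48.5% of all genes tested and 48.2% of the well-counted genes, and the median was 0.17 (SE of a single member 0.17 at the median). With DESeq2 1 member was called (PSMA4, adjusted p = 0.0351) where that tool called 1.50% of all genes, and with limma-voom 0 members were called where it called 0.512%. With no low-count filter edgeR called 0 members and 0.693% of all genes.

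**Figure D1:**
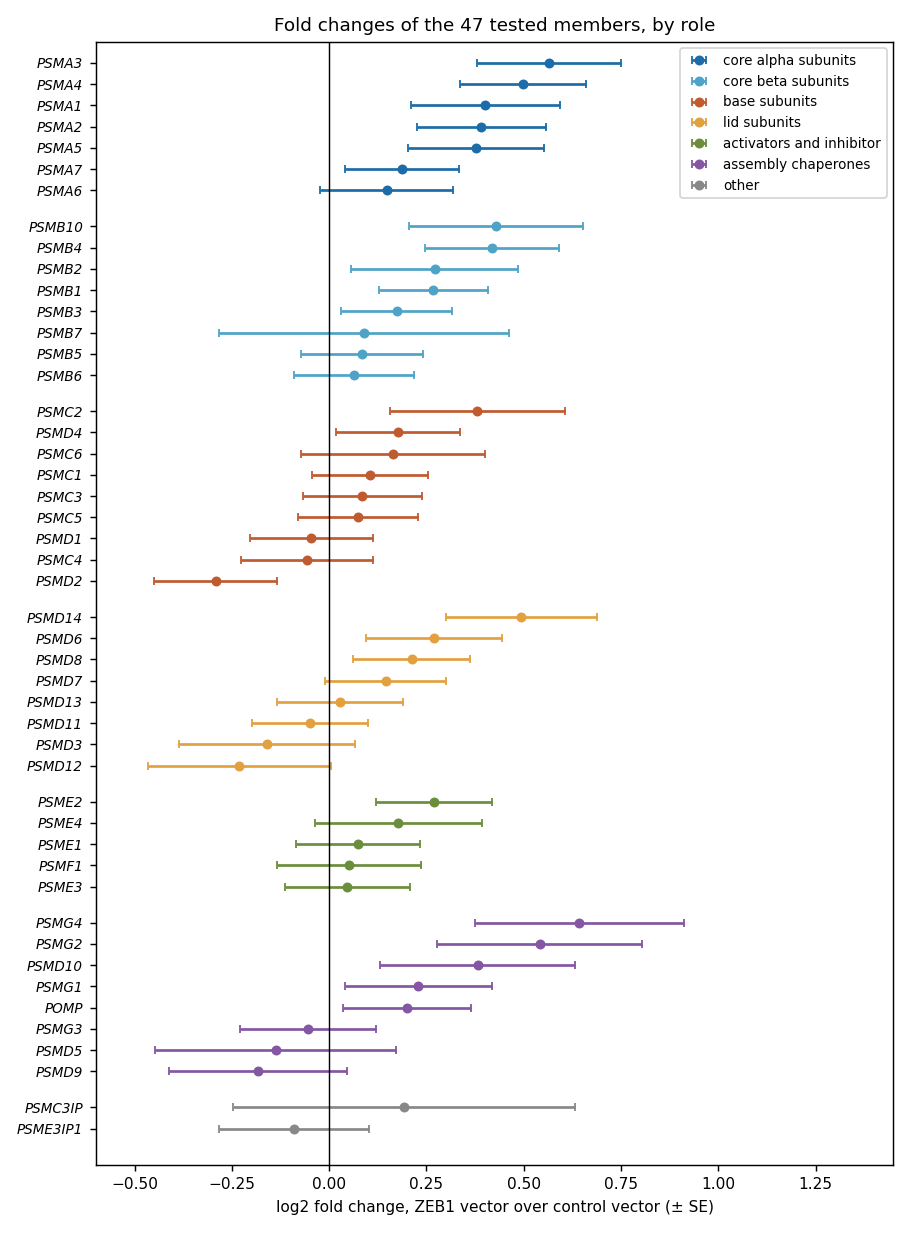
Log2 fold change of each of the 47 tested members, ZEB1 vector over control vector, with its standard error, grouped by role and sorted within each role. The alpha and beta subunits of the core all lie to the right of 0 (11 of 15 do without ZEB1 replicate 1, and 12 of 15 with library size as the only scaling or the length, GC and abundance trends removed), while base and lid subunits lie on both sides, from PSMD2 at -0.29 to PSMD14 at 0.49.

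The size of the shift differed between the ZEB1 libraries. For each role group a score was formed by subtracting from every gene's log2 CPM its control mean and averaging over the genes tested. The alpha subunits scored 0.63, 0.42 and 0.02 in ZEB1 replicates 1, 2 and 3, against -0.12, 0.05 and 0.08 in the controls. The beta subunits scored 0.42, 0.17 and 0.02 with the ZEB1 vector, against -0.10, 0.14 and -0.04 with the control vector. For both rings the score of ZEB1 replicate 3 lay inside the control range, and the high scores were those of the shallower libraries, replicates 1 and 2. Base subunits scored 0.09, -0.01 and 0.06 with the ZEB1 vector, against -0.04, -0.01 and 0.05 with the control vector. Lid subunits scored 0.28, -0.04 and -0.01 with the ZEB1 vector, against 0.00, 0.06 and -0.05 with the control vector, so that 1 library, ZEB1 replicate 1, carried what shift there was. The well-counted genes as a whole scored -0.04, -0.02 and 0.00 in the ZEB1 libraries. Of the 47 members, 37, 28 and 28 lay above their control mean in ZEB1 replicates 1, 2 and 3, and 12, 30 and 26 did so in control replicates 1, 2 and 3. Control replicate 1 was therefore the low control for most of the complex.

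**Figure D2:**
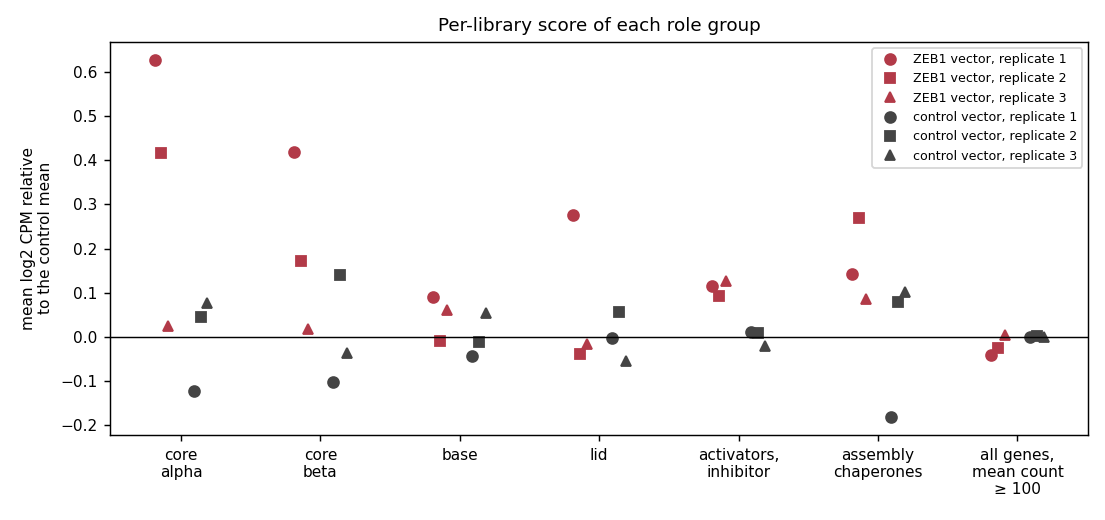
Mean log2 CPM of the tested genes of each role group in each library, relative to the control mean, with ZEB1 libraries in red and control libraries in grey. ZEB1 replicates 1 and 2 are high for the alpha subunits (0.63 and 0.42), and ZEB1 replicate 3 lies among the controls for both rings of the core.

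As a share of all counts, the 49 members together held nearly the same part of every library. Their share was 1.12%, 1.06% and 1.09% with the ZEB1 vector in replicates 1, 2 and 3, against 1.07%, 1.08% and 1.10% in control replicates 1, 2 and 3. The groups overlapped. Within that share the make-up differed between libraries: alpha subunits took 0.307%, 0.280% and 0.246% with the ZEB1 vector, against 0.228%, 0.242% and 0.256% with the control vector, while base subunits took 0.206%, 0.201% and 0.250% with the ZEB1 vector, against 0.258%, 0.235% and 0.260% with the control vector. A ratio of counts within a library does not depend on how libraries are scaled, but it can follow trends with transcript length, GC and abundance. Core subunits had a median length of 879 nt and regulatory particle subunits 1357 nt. With those trends removed, the median log2 fold change went from 0.27 to 0.11 for the core and from 0.09 to 0.01 for the regulatory particle. The ratios were not corrected for these trends. Summed core counts over summed base and lid counts gave 1.31, 1.31 and 1.06 in ZEB1 replicates 1, 2 and 3, against 0.946, 1.09 and 1.04 in the controls. The means were 1.22 ± 0.145 with the ZEB1 vector and 1.03 ± 0.0742 with the control vector (SD, n = 3 each). The ratio of alpha counts to base counts was 1.49, 1.40 and 0.985 with the ZEB1 vector, against 0.884, 1.03 and 0.983 with the control vector. In both ratios ZEB1 replicates 1 and 2 lay above every control and ZEB1 replicate 3 lay within the control range. PSMD2 alone holds many of the base counts, but without it the core ratio was still 1.56, 1.57 and 1.36 with the ZEB1 vector, against 1.25, 1.39 and 1.36 with the control vector. These ratios follow counts and are no measure of protein stoichiometry.

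**Figure D3:**
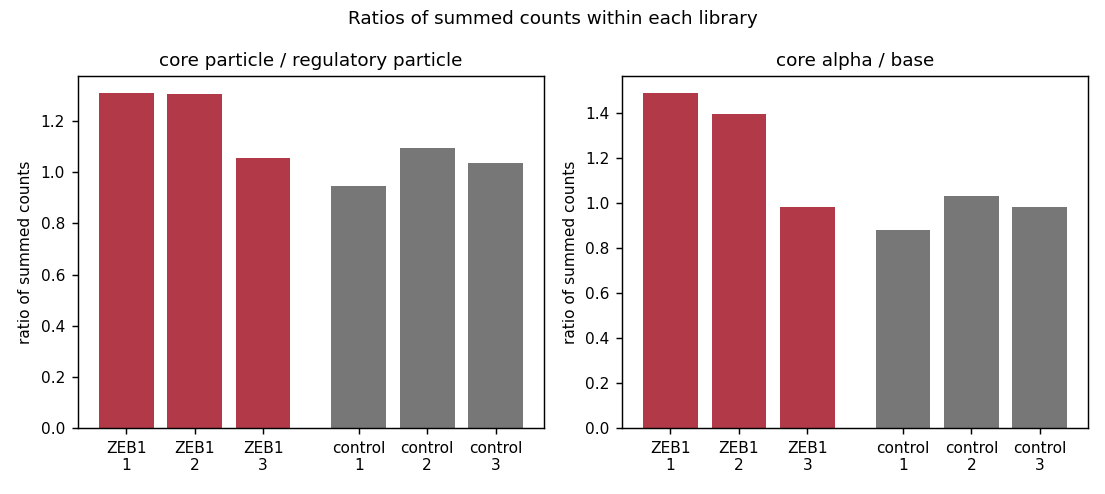
Ratio of summed core counts to summed base and lid counts (left) and of summed alpha counts to summed base counts (right) in each library. ZEB1 replicates 1 and 2 stand at 1.31 and 1.31 on the left and at 1.49 and 1.40 on the right, above the controls, and ZEB1 replicate 3 lies within the control range in both panels.

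The alpha subunits form the outer rings and the gate through which substrates enter. PSMA4 had 822, 669.8 and 546 CPM in ZEB1 replicates 1, 2 and 3, against 459.5, 449 and 529 CPM in the controls. All 3 ZEB1 libraries lay above all 3 controls, with replicate 3 only just so. PSMA4 (Entrez 5685, chr15:78540405-78552417) had a log2 fold change of 0.50 (SE 0.16), and edgeR gave an adjusted p of 0.273. The value was 0.16 with the length, GC and abundance trends removed and 0.33 without ZEB1 replicate 1. PSMA3, whose product also binds ubiquitin-free substrates, had 334, 277 and 199.9 CPM with the ZEB1 vector, against 152, 175 and 216 CPM with the control vector. The groups overlapped through ZEB1 replicate 3 and control replicate 3, and the log2 fold change of PSMA3 (Entrez 5684, chr14:58244843-58272004) was 0.56 (SE 0.18), or 0.28 with the length, GC and abundance trends removed. The antisense transcript PSMA3-AS1, which overlaps PSMA3, had a log2 fold change of 0.41, and since the strand setting of the counting is not given, reads of the pair may not have been separated. PSMA7, the alpha subunit with the most counts, had 1029, 870.3 and 856 CPM with the ZEB1 vector, against 747, 831 and 839 CPM with the control vector. Its groups did not overlap either, but the gap was small next to the spread and the log2 fold change was 0.19 (SE 0.15), which was 0.05 when scaled by library size alone and 0.0028 with the trends removed. PSMA1 had a log2 fold change of 0.40 and PSMA2 one of 0.39, each 0.21 without ZEB1 replicate 1. PSMA5 had 0.38, or 0.24 without ZEB1 replicate 2. PSMA6 had 286, 257 and 176 CPM with the ZEB1 vector, against 212, 223 and 208 CPM with the control vector, and its log2 fold change of 0.15 was -0.0044 without ZEB1 replicate 1. PSMA8, the alpha subunit of male germ cells, had 0 counts in every library.

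Over the whole complex, 4 members had all 3 ZEB1 libraries above all 3 controls (PSMA4, PSMA7, PSMB1 and PSME2), or 4 of 47 where 6.96% of all genes tested and 8.61% of well-counted genes did so. None of the 47 had all ZEB1 libraries below, where 8.16% of all genes tested and 8.47% of well-counted genes did. The count above is near the background and is not a result about the proteasome.

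Of the beta subunits, PSMB5, PSMB6 and PSMB7 carry the protease sites of the standard proteasome. PSMB5, the subunit with chymotrypsin-like activity that bortezomib blocks, had 460.1, 332 and 406 CPM with the ZEB1 vector, against 335, 414 and 380.1 CPM with the control vector. PSMB6, the subunit with caspase-like activity, had 467, 328 and 410.0 CPM with the ZEB1 vector, against 361, 409.8 and 380.1 CPM with the control vector. For both genes the groups overlapped, with log2 fold changes of 0.08 for PSMB5 (SE 0.16) and 0.06 for PSMB6 (SE 0.15). PSMB7, the subunit with trypsin-like activity, had few counts, 40, 21 and 57 in the ZEB1 libraries and 128, 120 and 108 in the controls, and its log2 fold change of 0.09 had an SE of 0.37. LOC100129034 overlaps PSMB7, so reads may have been shared or dropped in the counting. Without ZEB1 replicate 1 the log2 fold changes of PSMB5, PSMB6 and PSMB7 were -0.03, -0.06 and -0.38.

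PSMB4 had 365, 329 and 225 CPM with the ZEB1 vector, against 212, 247 and 224 CPM with the control vector. PSMB4 (Entrez 5692, chr1:151399573-151401937) was high in ZEB1 replicates 1 and 2 only, and its log2 fold change was 0.42 (SE 0.17, edgeR adjusted p = 0.440), or 0.27 without ZEB1 replicate 1. PSMB1 had 572, 537 and 503 CPM with the ZEB1 vector, against 437, 456 and 445 CPM with the control vector. This was the beta subunit whose groups did not overlap, and its log2 fold change of 0.27 (SE 0.14) was 0.22 to 0.31 on leaving out single libraries, but 0.13 when scaled by library size alone and 0.08 with the trends removed. PSMB3, the beta subunit with the most counts, had 562, 485 and 519.7 CPM with the ZEB1 vector, against 442, 494 and 453 CPM with the control vector. Its means were 522 ± 38.6 CPM with the ZEB1 vector and 463 ± 27.6 CPM with the control vector (SD, n = 3 each), a log2 fold change of 0.17 that was 0.04 when scaled by library size alone and 0.03 with the trends removed. PSMB2 owed its log2 fold change of 0.27 to 1 library: it had 155, 308 and 157 CPM with the ZEB1 vector, against 160.4, 195 and 157 CPM with the control vector, and without ZEB1 replicate 2 the value was -0.14. PSMB10 replaces PSMB7 in the immunoproteasome, the form of the core induced by interferon gamma that favours peptides for antigen presentation. It had 123, 110.1 and 70.0 CPM with the ZEB1 vector, against 57.3, 90.1 and 74.3 CPM with the control vector, with overlapping groups and a log2 fold change of 0.43 (SE 0.22), or 0.26 without ZEB1 replicate 1. PSMB11, the beta subunit of the thymus, had 0 counts in every library.

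**Figure D4:**
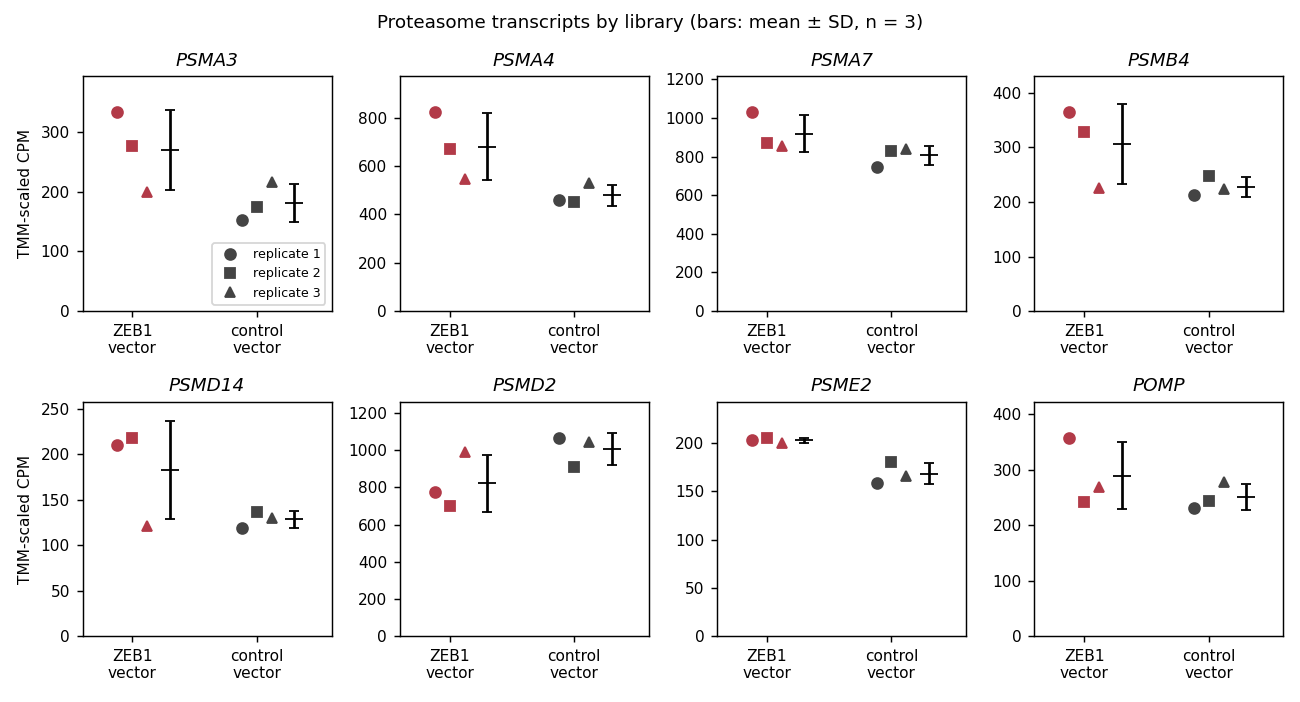
TMM-scaled CPM of 8 members in each library, with the ZEB1 vector left of the control vector, a marker shape for each replicate and the mean ± SD (n = 3) beside the points. PSMA3, PSMA4, PSMB4 and PSMD14 are high in ZEB1 replicates 1 and 2 and near the controls in replicate 3, and PSMD2 is low in the same 2 libraries.

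In the base, PSMC1 to PSMC6 are the ATPases that thread the substrate into the core, and PSMD1 and PSMD2 are the scaffolds on which they and the ubiquitin receptors sit. PSMD2, on the other side of 0 from the core, had 775, 699 and 991 CPM with the ZEB1 vector, against 1067, 908 and 1046 CPM with the control vector. ZEB1 replicates 1 and 2 lay below every control and replicate 3 lay among them. PSMD2 (Entrez 5708, chr3:184299241-184309050) had the lowest log2 fold change of all members, -0.29 (SE 0.16, edgeR adjusted p = 0.602). PSMC3, the ATPase with the most counts, had 304, 231 and 308 CPM with the ZEB1 vector, against 254, 279 and 262 CPM with the control vector. Its means were 281 ± 43.8 CPM with the ZEB1 vector and 265 ± 12.7 CPM with the control vector (SD, n = 3 each), a log2 fold change of 0.09. The other scaffold, PSMD1, had a log2 fold change of -0.05, and the ubiquitin receptor PSMD4 had 0.18. Among the remaining ATPases PSMC1, PSMC4, PSMC5 and PSMC6 ran from -0.06 to 0.16. PSMC2 had 139.8, 83.2 and 70.6 CPM with the ZEB1 vector, against 67.2, 82.6 and 71.2 CPM with the control vector, so that its log2 fold change of 0.38 came from ZEB1 replicate 1, and without that library it was 0.05. Reads of PSMC2 may be shared with PMPCB, which overlaps it.

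In the lid, PSMD14 is the metalloprotease that cuts the ubiquitin chain off the substrate before it enters the core. It had 209.7, 218 and 121 CPM with the ZEB1 vector, against 119, 137 and 130.3 CPM with the control vector. The first 2 ZEB1 libraries lay far above the controls and the third lay among them. PSMD14 (Entrez 10213, chr2:161308425-161411717) had a log2 fold change of 0.49 (SE 0.19), for which edgeR gave an adjusted p of 0.411. PSMD7, the partner that PSMD14 binds in the lid, had 636, 429.7 and 535 CPM with the ZEB1 vector, against 476, 499 and 471 CPM with the control vector, a log2 fold change of 0.15 (SE 0.16) with overlapping groups, which was 0.00089 without ZEB1 replicate 1. PSMD11, the lid subunit with the most counts beside PSMD7, had 486, 453 and 489 CPM with the ZEB1 vector, against 557, 421 and 499.6 CPM with the control vector. Its means were 476 ± 20.2 CPM with the ZEB1 vector and 492 ± 68.1 CPM with the control vector (SD, n = 3 each), a log2 fold change of -0.05. PSMD6 had 188, 150.5 and 123 CPM with the ZEB1 vector, against 135, 126 and 119 CPM with the control vector, a log2 fold change of 0.27 (SE 0.17), or 0.10 without ZEB1 replicate 1. PSMD8 had a log2 fold change of 0.21 and PSMD13 0.03. The structural subunits PSMD3 and PSMD12 had -0.16 and -0.23, with SEs of 0.23 and 0.24.

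The activators bind the core in place of the regulatory particle. PSME1 and PSME2 form the interferon-inducible ring, PSME3 its nuclear relative, and PSME4 a large monomeric activator. PSME2 had 203, 206 and 199.6 CPM with the ZEB1 vector, against 159, 179.9 and 166 CPM with the control vector. It was the most even of the members whose groups did not overlap, since all 3 ZEB1 libraries, the deep one included, stood at one level. PSME2 (Entrez 5721, chr14:24143365-24146610) had a log2 fold change of 0.27 (SE 0.15) and 0.22 to 0.32 on leaving out single libraries, and the edgeR adjusted p was 0.605. It was 0.14 when scaled by library size alone and 0.15 with the trends removed. PSME1, its obligate partner in the ring, had 154 ± 20.5 CPM with the ZEB1 vector and 147 ± 8.43 CPM with the control vector (SD, n = 3 each), a log2 fold change of 0.07. PSME3 had 150.4, 202 and 162 CPM with the ZEB1 vector, against 173, 169 and 156 CPM with the control vector, a log2 fold change of 0.05. PSME4 had 64.6, 48.7 and 74.5 CPM with the ZEB1 vector, against 54.9, 55.0 and 57.4 CPM with the control vector, a log2 fold change of 0.18 that was 0.0030 without ZEB1 replicate 3. PSMF1, which binds the core and inhibits it in vitro, had 0.05.

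Assembly needs dedicated chaperones that leave the finished particle. POMP, which guides the beta ring and is degraded as the first substrate of the new core, had 357, 241 and 269 CPM with the ZEB1 vector, against 231, 244 and 277 CPM with the control vector. The groups overlapped, and the log2 fold change was 0.20 (SE 0.16), or 0.02 without ZEB1 replicate 1 and -0.08 with the trends removed. PSMG1 and PSMG2 act as a pair on the alpha ring, as do PSMG3 and PSMG4. PSMG4 had 70.8, 58.3 and 44.5 CPM with the ZEB1 vector, against 25.7, 49.2 and 34.6 CPM with the control vector. The log2 fold change of PSMG4 (Entrez 389362, chr6:3254404-3268049), 0.64, was the highest of all members, but with an SE of 0.27 and an edgeR adjusted p of 0.452. PSMG3, its partner, had 181, 115 and 149 CPM with the ZEB1 vector, against 138, 156 and 165 CPM with the control vector, a log2 fold change of -0.05 (SE 0.18). PSMG2 had 40.7, 83.2 and 46.0 CPM with the ZEB1 vector, against 33.9, 41.4 and 41.4 CPM with the control vector, a log2 fold change of 0.54 (SE 0.26) that was 0.16 without ZEB1 replicate 2, and CEP76 and SPIRE1 overlap it. PSMG1 had 0.23. Of the chaperones of the base, PSMD10 had a log2 fold change of 0.38, PSMD5 -0.14 and PSMD9 -0.18, with SEs of 0.25, 0.31 and 0.23. The 2 members by name only, the meiotic recombination factor PSMC3IP and the PSME3-binding protein gene PSME3IP1, had 0.19 (SE 0.44) and -0.09 (SE 0.19) on the log2 scale.

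Values per kilobase of median transcript length are given for some subunits, although the libraries may not sample the length of a transcript evenly. If counts in these libraries do not rise with length, only undivided values compare levels. In the ZEB1 libraries PSMA7 had 1082 CPM per kilobase and PSMA5 58.6, and in the controls they had 949 and 44.7. Among the standard beta subunits PSMB3 was highest, at 814 CPM per kilobase with the ZEB1 vector and 721 with the control vector. PSMB7 was lowest, at 26.9 with the ZEB1 vector and 24.5 with the control vector, with the overlap by another annotated gene given above. Subunits that occur in equal numbers in each core thus differed widely in counts per length, in both groups alike. Part of the gap comes from the division by length. Undivided, PSMA7 had 918 and PSMA5 153 CPM with the ZEB1 vector, and 805 and 117 CPM with the control vector. Whether counts rise with transcript length in these libraries was not tested.

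Fold changes differed with transcript length over all genes, and proteasome transcripts are short. The 2887 tested genes with a median transcript length under 1000 nt had a median log2 fold change of 0.07, those of 1000 to 2000 nt had -0.01, and those of 2000 nt and over had -0.07. The tested members had a median length of 1154 nt, against 1772.5 nt for all genes tested, and the core subunits 879 nt. By length, the 18 members under 1000 nt had a median log2 fold change of 0.18, the 23 of 1000 to 2000 nt 0.11 and the 6 of 2000 nt and over 0.07. With trends against transcript length, GC content and abundance removed library by library, the members' median was 0.04, beside 0.04 for all genes in that fit, and 31 of 47 were above 0. The alpha subunits kept the highest median of the role groups, at 0.16, with 6 of 7 above 0. Scaling by library size alone, which moved the median of all genes to -0.14, gave a median of 0.04 for the members with 27 of 47 above 0, and 0.25 for the alpha subunits with 7 of 7 above 0.

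**Figure D5:**
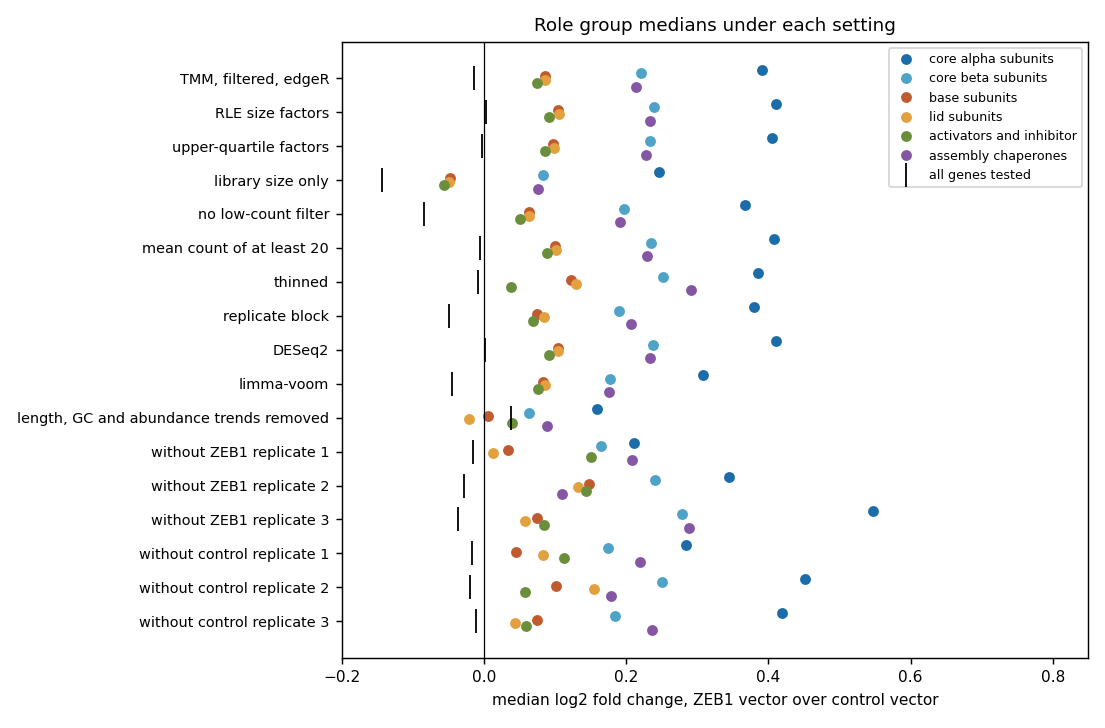
Median log2 fold change of each role group, and of all genes tested (black bars), in the edgeR fit with TMM and under each other setting in turn, from scaling to single libraries left out. The alpha subunits have the highest median in every setting shown, from 0.16 with the trends removed to 0.55 without ZEB1 replicate 3, while base and lid medians cross 0.

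The count of calls depended on the tool and the low-count filter, as given above, and on the libraries. Of the single libraries left out in turn, ZEB1 replicate 3 changed the edgeR count most. Without it, 4 members passed the edgeR threshold, all higher: PSMA3 (log2 fold change 0.74, adjusted p = 0.0205), PSMA4 (0.63, adjusted p = 0.0229), PSMB4 (0.60, adjusted p = 0.0278) and PSMD14 (0.73, adjusted p = 0.0138). In that fit 3.38% of all genes tested passed and 2.40% passed and were higher. With ZEB1 replicate 3 as the lone ZEB1 library, a choice made after seeing the data that assumes it varies like the controls, the median of the members was 0.05, that of the alpha subunits 0.08, that of the assembly chaperones 0.13, and 26 of 47 were above 0.

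The promoters of the members were searched for 3 motifs, because ZEB1 binds an E-box, NFE2L1 the antioxidant response element, and CCAAT boxes are common in promoters of housekeeping genes. The windows run from 250 bases before to 50 bases after the annotated start (RefSeq, GRCh38.p14), on the strand of the gene, and were found for 41 of the 47 tested members and for 9139 of all genes tested. Capitals mark CACCTG or its reverse complement CAGGTG, TGACNNNGC or its reverse complement, and CCAAT or its reverse complement ATTGG, on either strand. Shown are PSMA3, PSMA4 and PSMD14, the members with the lowest p in the alpha ring and the lid, and PSMD2, the member with the lowest fold change.
PSMA3: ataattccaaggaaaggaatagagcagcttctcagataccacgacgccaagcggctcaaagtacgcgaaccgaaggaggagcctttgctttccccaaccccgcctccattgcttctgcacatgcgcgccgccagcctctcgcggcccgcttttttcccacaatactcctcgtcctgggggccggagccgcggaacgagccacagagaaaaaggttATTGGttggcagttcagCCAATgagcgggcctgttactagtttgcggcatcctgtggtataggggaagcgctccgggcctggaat
PSMA4: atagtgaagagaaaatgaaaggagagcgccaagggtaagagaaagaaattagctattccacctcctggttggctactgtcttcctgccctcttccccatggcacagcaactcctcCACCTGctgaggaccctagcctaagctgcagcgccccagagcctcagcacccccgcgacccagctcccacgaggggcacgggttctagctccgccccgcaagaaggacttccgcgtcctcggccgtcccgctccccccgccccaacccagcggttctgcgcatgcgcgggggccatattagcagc
PSMD14: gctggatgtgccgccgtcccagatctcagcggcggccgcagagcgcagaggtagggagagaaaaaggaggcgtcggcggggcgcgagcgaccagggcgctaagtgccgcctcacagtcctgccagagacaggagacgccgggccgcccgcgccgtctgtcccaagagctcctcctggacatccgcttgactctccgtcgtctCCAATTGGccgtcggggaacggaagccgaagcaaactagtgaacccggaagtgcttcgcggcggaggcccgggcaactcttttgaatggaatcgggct
PSMD2: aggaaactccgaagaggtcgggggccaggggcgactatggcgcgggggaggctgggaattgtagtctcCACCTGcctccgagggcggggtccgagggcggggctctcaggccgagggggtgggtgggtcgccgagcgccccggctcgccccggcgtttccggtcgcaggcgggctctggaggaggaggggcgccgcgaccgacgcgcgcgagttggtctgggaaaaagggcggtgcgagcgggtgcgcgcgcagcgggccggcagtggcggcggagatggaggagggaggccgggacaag
These are chr14:58244593-58244892, chr15:78540155-78540454, chr2:161308175-161308474 and chr3:184298991-184299290, all on the forward strand. PSMA3 and PSMD14 each hold 2 CCAAT matches, which overlap in PSMD14, close to the start. PSMA4 and PSMD2, which had fold changes of opposite sign, each hold 1 CACCTG. None of the 4 windows holds the antioxidant response element core.

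Over all members, CACCTG or its complement occurred in 5 of 41 windows (12.2%), against 17.1% of all windows. Those 5 were PSMA4, PSMD1, PSMD2, PSMD7 and PSMD11, and their median log2 fold change was -0.05, against 0.18 for the 36 members without a match. By role these were 1 alpha, 2 base and 2 lid subunits, so motif and role cannot be told apart in that contrast. Over all genes tested the medians with and without a match were -0.01 and -0.02. The antioxidant response element core occurred in 12 of 41 windows (29.3%), against 15.0% of all windows, among them 4 of 7 assembly chaperones, 3 of 5 activators and inhibitors and 0 of 6 alpha subunits. Members with it had a median of 0.01, and the 29 without it 0.20. Over all windows the medians with and without it were -0.03 and -0.02. CCAAT occurred in 19 of 41 windows (46.3%), against 36.9% of all windows, with medians of 0.21 with and 0.13 without a match. For CCAAT the medians over all windows were -0.004 with and -0.03 without a match. A match is a description of letters in a window, not evidence of binding.

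Genes that work with the proteasome gave few larger values, and 0 of them passed the edgeR threshold with all 6 libraries. Of those named below, DESeq2 called UBB (adjusted p = 0.0247), RPS27A (0.0343), UBE2T (0.0202) and COPS9 (0.0469), where it called 1.50% of all genes. Without ZEB1 replicate 3, edgeR called SEM1 (adjusted p = 0.00558), UBE2V2 (0.00984), RPS27A (0.0179), UBB (0.0208), UBE2T (0.0218) and COPS9 (0.0278) higher. It called UBXN1 (0.0462) lower, and 3.38% of all genes in either direction. The 6 genes of ubiquitin and its activating enzymes had a median log2 fold change of 0.23, with 3 higher and 0 lower at an edgeR p under 0.05 before adjustment. For this and the lists below, 5.83% of all genes tested were higher and 3.57% lower at that p. Among well-counted genes 9.00% were higher and 4.46% lower. The polyubiquitin gene UBB had 2629, 2307 and 1809.6 CPM with the ZEB1 vector, against 1549, 1627 and 1666 CPM with the control vector, and its log2 fold change was 0.48 (SE 0.16, adjusted p = 0.286). RPS27A, which encodes ubiquitin fused to a ribosomal protein, had a log2 fold change of 0.52 (SE 0.17). With the length, GC and abundance trends removed the values were 0.24 for UBB and 0.13 for RPS27A. Without ZEB1 replicate 1 they were 0.34 for UBB and 0.31 for RPS27A. In both UBB and RPS27A, all ZEB1 libraries lay above all controls, as they did for 6.96% of all genes tested and 8.61% of well-counted genes. The 27 ubiquitin-conjugating enzymes had a median of 0.12, with 6 higher and 0 lower at that p, and UBE2T, which acts in interstrand crosslink repair, had 151 ± 20.1 CPM with the ZEB1 vector and 97.3 ± 10.9 CPM with the control vector (SD, n = 3 each, log2 fold change 0.63, edgeR adjusted p = 0.220). UBE2V2 had 0.59, and UBE2S, the member with the most counts, 0.01.

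Of 16 partners of the particle outside the naming rule, 7 were above 0 and the median was -0.03, with 2 higher and 1 lower at that p. SEM1, the smallest lid subunit, had 520.3, 437 and 262 CPM with the ZEB1 vector, against 248, 277 and 292 CPM with the control vector, again high in ZEB1 replicates 1 and 2 alone (log2 fold change 0.57). The ubiquitin receptor ADRM1 had -0.07 and the shuttle factor UBQLN1 0.42. The 8 tested regulators of proteasome genes had a median of 0.00 with 0 higher and 0 lower at that p. NFE2L1 had 157 ± 54.7 CPM with the ZEB1 vector and 184 ± 27.4 CPM with the control vector (SD, n = 3 each, log2 fold change -0.20), MAFG had -0.35 and NGLY1, which activates NFE2L1 by removing its glycans, 0.45 (SE 0.36). The unfoldase p97 and its cofactors, 12 genes, had a median of -0.06, with VCP at -0.09, UFD1 at 0.30 and UBXN1 at -0.41. The COP9 signalosome, whose architecture resembles the lid, had a median of 0.03 over 10 genes, with COPS9 at 0.59 and COPS7B at 0.66.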

How the data were processed

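RNA from 6 TC28a2 samples was made into DRUG-seq libraries, a low-cost form of RNA-seq, per the labels' protocols. The authors deposited raw counts per Entrez gene. The submitters' processing notes name HISAT2, Subread, featureCounts and GRCh38 with no version. Strand setting, annotation release and handling of molecular identifiers were not given in the sources used here, so counts may not be independent molecules. RefSeq (GRCh38.p14) named 27745 of 28395 IDs, and the table held 0 rows of PSM pseudogenes. Members and gene lists were chosen with earlier results of these data known.

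Counts were fitted with edgeR 4.0.16 (R 4.3.3): filterByExpr (minimum count 10), TMM, robust quasi-likelihood, group as the only term, Benjamini-Hochberg over 11329 genes, two-sided. An SE is the size of the fold change over the square root of F, an approximation. Scores used log2 CPM with a prior count of 2. Of the members 47 of 49 passed the filter, and the other 2 had 0 counts. A floor of 3 counts, for counting error only, was (unscaled) 2.35, 1.85 and 0.905 CPM in ZEB1 replicates 1, 2 and 3 and 0.510 to 0.560 CPM in the controls. Another annotated gene overlaps 20 of the 49. Median transcript lengths and GC came from GENCODE v29. Alternatives were RLE, upper-quartile and library-size scaling, other filters, thinning to 1277632 counts, a replicate block, leaving out libraries, DESeq2 1.42.0, limma-voom (limma 3.58.1), non-robust dispersions, a threshold of 0.1 and removal of length, GC and abundance trends. Leaving out ZEB1 replicates 1 and 2 together was chosen after seeing the data. Steps were tested on simulated data. Named in full were, in each role group, the 2 members with the most counts and the 2 with the lowest p, with the catalytic beta subunits and single-library cases added after their values were seen, and in each pathway list the gene with the most counts and the 2 with the lowest p, apart from 1 gene that is not reported here.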

Additional observations from a re-analysis of the deposited data

How the results depend on the processing

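The number of members called was 0 in the edgeR fit, 1 with DESeq2 and 0 to 4 when each library was left out in turn (4 in the absence of ZEB1 replicate 3). The number of all genes called was 1, with 170 under DESeq2, 58 under limma-voom, 127 with no low-count filter, 2 with length, GC and abundance trends removed, 2 without ZEB1 replicates 1 and 2, and 1 to 409 over single leave-outs (409 in the absence of ZEB1 replicate 3).

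The median log2 fold change of all members was 0.17. It was 0.041 with library size as the only scaling, 0.040 with the trends removed, 0.051 without ZEB1 replicates 1 and 2, and 0.11 to 0.18 when each library was left out in turn, with 33 to 38 members above 0. The alpha median was 0.081 without ZEB1 replicates 1 and 2 and 0.21 to 0.55 over single leave-outs, and the beta median 0.16 to 0.28. Base gave -0.048 with library size only, 0.0062 with the trends removed and 0.033 to 0.15 over single leave-outs. The lid gave -0.049 with library size only, -0.020 with the trends removed and 0.012 to 0.15 over single leave-outs. Assembly chaperones gave 0.075 with library size only, 0.089 with the trends removed and 0.11 to 0.29 over single leave-outs. Activators and inhibitor gave -0.056 with library size only, 0.091 with RLE factors, 0.092 with DESeq2, 0.040 with the trends removed, 0.051 with no low-count filter, 0.038 with thinning, 0.051 without ZEB1 replicates 1 and 2, and 0.058 to 0.15 over single leave-outs. Of the 47 members, 24 kept the sign of their fold change in all 17 planned refits. The cause of these differences was not tested.

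Replicate numbers gave no sign of pairing: deviations of same-numbered libraries correlated at -0.07, -0.01 and -0.01. Differently numbered libraries correlated at -0.09 to 0.10. With 3 libraries per group, these values cannot exclude a pairing. With the number as a block 0 members and 1 gene were called, and the median of the members was 0.13. The depth of ZEB1 replicates 1 and 2 limits members with few counts, such as PSMB7 and PSMC3IP.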
